A study of Mus musculus with 4 samples.

Results

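Death receptors are members of the TNF receptor superfamily that carry a death domain inside the cell. Bound by their ligands, Fas and the TRAIL receptor recruit the adaptor FADD, which brings in caspase-8, the protease that starts the apoptotic cascade. FLIP, the product of Cflar, resembles caspase-8 and competes with it at the receptor. Decoy receptors bind ligand without a death domain, and the mouse has a cluster of related decoy genes that lies apart from its TRAIL death receptor gene. Fas, the TRAIL receptor and decoy receptors are known as genes that p53 can induce.

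The expression of 10 genes of this pathway was examined, Fas, Tnfrsf10b, Tnfrsf1a and Tnfrsf1b, the cluster genes Tnfrsf22, Tnfrsf23 and Tnfrsf26, the adaptor Fadd, and Casp8 and Cflar. They were chosen by gene symbol, and each had 1 probe set among the 26246 genes tested. The measurements came from J774M, a mouse cell line classed by the labels as myeloid-derived suppressor cells, grown in RPMI medium with serum. There were 2 control arrays and 2 arrays of cells exposed to 10 uM NC06, a neutral ceramidase inhibitor, for 24 h, with total RNA on 1 whole-transcript array per sample. Both groups are of the same line, no genetic change is named for either, and the sources used here do not say what was added to the control cells. Nothing in the labels ties the arrays to separate cultures, and the spread that the p-values rest on may therefore be technical. In bulk RNA, fewer cells of a type and less RNA per cell cannot be told apart.

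Values are log2 signals as the authors deposited them, and differences are NC06 minus control in log2 units. The median of all probe sets was between 4.67 and 4.75 on the 4 arrays, and the lower quartile between 3.51 and 3.57. Myeloid markers were bright in both groups. Ptprc (CD45) read 10.83 and 10.86 in control and 11.07 and 11.17 in NC06 cells. Itgam (CD11b) read 10.53 and 10.70 in control and 11.40 and 11.51 in NC06 cells. Of the surface markers used for suppressor cells, Ly6g read 5.97 and 6.10 in control and 7.44 and 7.39 in NC06 cells. Ly6c2 went the other way, with 7.62 and 7.80 in control and 7.42 and 7.11 in NC06 cells. Its difference was -0.44 (unadjusted p 0.0321 in limma). Ly6c1, at 3.46 to 3.66, lay near the lower quartile. The B cell markers Cd79a, Ms4a1 and Pax5 had values of 2.77 to 4.88, near or below the medians of the arrays. Of 10 myeloid markers 4 were higher and 1 lower in NC06 cells at an unadjusted p under 0.05, and of the T and NK cell (6), B cell (4) and epithelial and fibroblast (6) markers 1, 0 and 1 were higher and 1, 1 and 0 lower. Of all genes 7.79% were higher and 7.52% lower at that threshold. Of 11 granulocyte markers 5 were higher and 1 lower in NC06 cells at an unadjusted p under 0.05, and their mean signal was 4.79 and 4.88 in control and 5.51 and 5.40 in NC06 cells. The 11 markers differed by -0.28 to 2.89 log2. Their part in the values below was not tested.

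Among the 10 genes, the decoy receptor gene Tnfrsf23 and the death receptor gene Fas were higher in NC06 cells and the adaptor gene Fadd was lower. The remaining 7 differed by 0.0612 to 0.16 log2, each with an interval that includes 0. By limma over all 26246 genes 0 of the 10 had an adjusted p under 0.05, against 0% of all genes at that threshold. At an unadjusted p under 0.05 there were 2 higher and 1 lower, where 7.79% of all genes were called higher and 7.52% lower. The NC06 values were entirely above the control values in 6 of the 10 genes and entirely below them in 1, and in all genes this was so for 23.3% and 24.4%. The difference was above 0 in 9 of the 10, compared with 50.5% of all genes. The median difference of the 10 was 0.123, beside a median of 0.00199 over all genes.

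**Figure D1:**
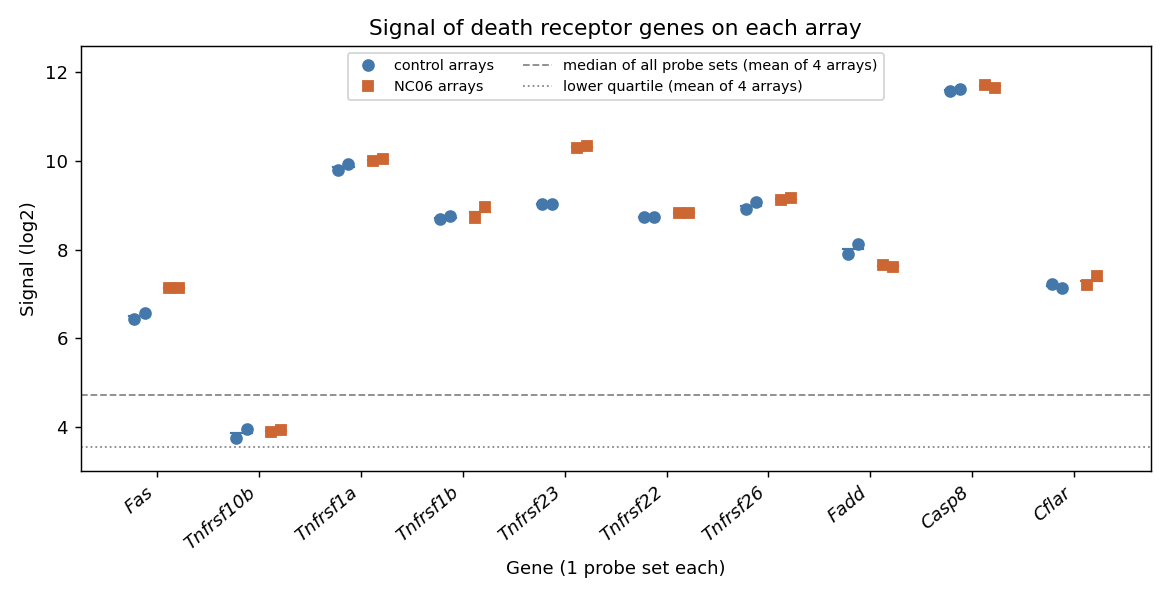
Log2 signal (vertical axis) of the 10 genes on the 2 control arrays (blue circles) and the 2 NC06 arrays (orange squares), with short lines at the group means and grey lines at the median and lower quartile of all probe sets. Tnfrsf23 moved from 9.03 to 10.29 and 10.33, and Tnfrsf10b lay below the median on every array.

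Tnfrsf23 encodes a receptor that binds TRAIL without a death domain. It lies on chromosome 7 with its relatives Tnfrsf22 and Tnfrsf26. Its signal was 9.03 on each control array and 10.29 and 10.33 on the NC06 arrays. The groups did not overlap, and the gap between them was many times the difference between arrays of a group. The difference was 1.28 (SE 0.0751, 95% interval from 1.07 to 1.48), or 2.42-fold, with a p of 3.75e-05 and an adjusted p of 0.0542 in limma. This was the 16th smallest p among the 26246 genes, and the 28th largest difference upward. An adjusted p under 0.10 in the higher direction was reached by 0.293% of all genes, and by Tnfrsf23 among the 10. The adjusted p was 0.00515 in a fit without the genes below the median signal, where 3.58% of genes were called higher, and 3.8e-05 with a variance prior that had trend and robust fitting, where 2.44% were. The median signal here is 4.99, the median over genes of the brighter group's mean, so a gene could enter through either group. Tnfrsf23 was above it on every array. With the replicate number as a block in the limma fit, the adjusted p of Tnfrsf23 was 0.349. With any array left out the difference stayed between 1.26 and 1.29.

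Tnfrsf22 encodes the other TRAIL decoy of the cluster. It read 8.74 and 8.73 in control cells and 8.83 and 8.82 in NC06 cells. The groups did not overlap, but the step between them was small, 0.0923 log2 (SE 0.0742, 95% interval from -0.11 to 0.29, adjusted p 0.6 in limma). The authors' deposited table lists a ratio of 1.07 and a p of 0.00125 for Tnfrsf22. In the authors' deposited table the p was 0.000176 for Tnfrsf23, 0.0106 for Fas and 0.0633 for Fadd. The 3 genes with a p under 0.05 there were thus Tnfrsf23, Tnfrsf22 and Fas, and in limma, unadjusted, Tnfrsf23, Fas and Fadd. Of all genes 3550 of 26098 had a p under 0.05 in the authors' deposited table, and 4018 of 26246 in limma. After Benjamini-Hochberg adjustment of the authors' deposited p-values 0 genes passed 0.05. The adjusted values were 0.23 for Tnfrsf23, 0.233 for Tnfrsf22 and 0.281 for Fas. The arrays of each group differed by at most 0.01 log2 for Tnfrsf22, a spread that limma's moderated fit widens towards that of other genes and an ordinary test of this gene alone does not.

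Tnfrsf26, a related receptor gene of the cluster, read 8.91 and 9.07 in control cells and 9.13 and 9.16 in NC06 cells. Both NC06 values were above both control values, yet the difference of 0.16 (SE 0.0909, adjusted p 0.471 in limma) was close in size to the 0.15 that separated the control arrays. The differences of Tnfrsf22 and Tnfrsf26 were set against that of Tnfrsf23 within each array, which removes what an array adds to all its probe sets. Within each array Tnfrsf23 minus Tnfrsf22 was 0.30 and 0.30 in control and 1.47 and 1.50 in NC06 cells, a change of 1.18. Tnfrsf23 minus Tnfrsf26 was 0.12 and -0.04 in control and 1.16 on both NC06 arrays, a change of 1.12. Each had a p of 0.333 in an exact two-sided permutation test (adjusted p 0.667 over 4 pairs), the smallest p that 2 arrays against 2 allow. Sequences of the array's probes were not used here, so cross-hybridisation between these related genes was not examined.

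The genes on either side of the cluster had smaller differences than Tnfrsf23 or differences of opposite sign. In the order of the RefSeq gene table (GRCm38.p6) the 3 genes lie as Tnfrsf26, Tnfrsf22 and Tnfrsf23, and the 4 nearest tested genes were taken on each side. On the Tnfrsf23 side, Osbpl5, which encodes an oxysterol-binding protein-like protein, read 4.75 and 4.94 in control and 4.82 and 4.70 in NC06 cells, with overlapping groups. Mrgprg and Mrgpre, receptor genes of the Mas-related family, differed by 0.26 and 0.33. The NAD synthetase gene Nadsyn1 differed by -0.22. On the Tnfrsf26 side the largest difference was that of Cars, the cysteinyl-tRNA synthetase gene, which read 8.41 and 8.54 in control and 7.63 and 7.78 in NC06 cells. Its difference was -0.77 (SE 0.101, adjusted p 0.146 in limma), opposite in sign to Tnfrsf23. The adjusted p of Cars in limma was 0.022 without the genes below the median signal and 0.00267 with the trend and robust prior. The histone chaperone gene Nap1l4 differed by -0.0354 and the predicted genes Gm23297 and Gm15579 by 0.0006 and -0.16. Of the 8 neighbours 0 had an adjusted p under 0.05 in limma, as did 0% of all genes. At an unadjusted p under 0.05, 2 were higher and 2 lower, where 7.79% of all genes were higher and 7.52% lower.

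**Figure D2:**
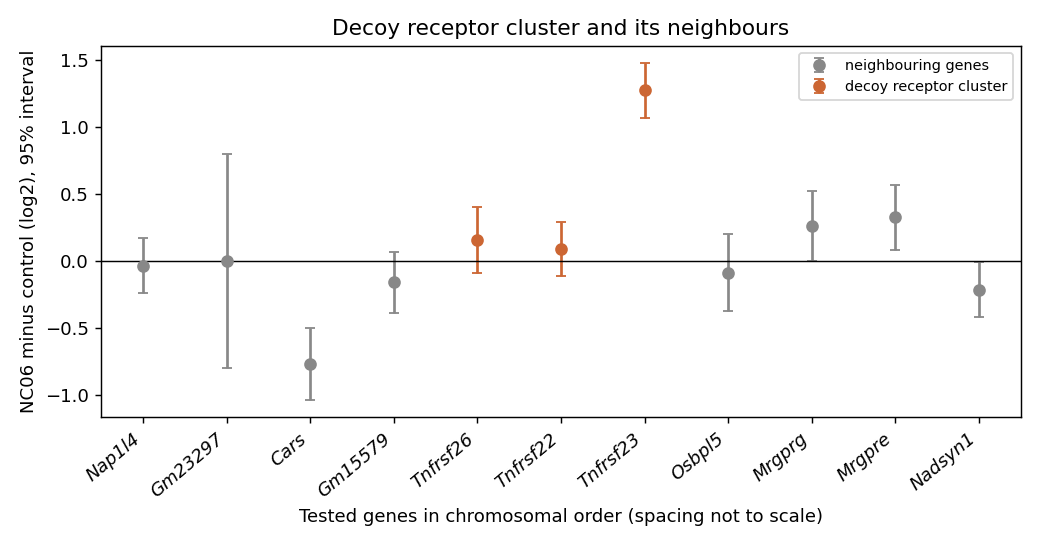
Difference between NC06 and control (log2, vertical axis) with its 95% interval for the tested genes in chromosomal order, the 3 cluster genes in orange and 4 neighbours on each side in grey. Tnfrsf23 stands at 1.28, its immediate neighbours Tnfrsf22 and Osbpl5 at 0.0923 and -0.086, and Cars at -0.77.

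Fas is the receptor of Fas ligand and signals death through FADD. Its signal was 6.42 and 6.56 in control cells and 7.14 on both NC06 arrays. The groups did not overlap, and the control arrays were 0.13 apart. The difference was 0.65 (SE 0.0871, 95% interval from 0.41 to 0.88), or 1.57-fold, with a p of 0.00124 and an adjusted p of 0.148 in limma. Of all genes 0.831% had a smaller p. The adjusted p was 0.0217 without the genes below the median signal and 0.00779 with the trend and robust prior. The difference was between 0.58 and 0.71 with any array left out.

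The promoter windows of Tnfrsf23 and Fas, the members with the largest differences, are shown to compare the sequence at their start sites, from 250 bases before to 50 after the start in RefSeq on GRCm38.p6. Tnfrsf23 lies on the minus strand at chr7:143685826-143686125 and Fas on the plus strand at chr19:34290409-34290708, and capitals mark each match to the motifs named below.
Tnfrsf23: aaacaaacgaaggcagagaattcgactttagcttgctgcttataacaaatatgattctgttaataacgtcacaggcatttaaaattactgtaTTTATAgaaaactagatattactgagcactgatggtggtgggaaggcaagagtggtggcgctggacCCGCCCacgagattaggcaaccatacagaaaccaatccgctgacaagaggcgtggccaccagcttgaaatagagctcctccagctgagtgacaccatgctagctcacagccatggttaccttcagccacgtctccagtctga
Fas: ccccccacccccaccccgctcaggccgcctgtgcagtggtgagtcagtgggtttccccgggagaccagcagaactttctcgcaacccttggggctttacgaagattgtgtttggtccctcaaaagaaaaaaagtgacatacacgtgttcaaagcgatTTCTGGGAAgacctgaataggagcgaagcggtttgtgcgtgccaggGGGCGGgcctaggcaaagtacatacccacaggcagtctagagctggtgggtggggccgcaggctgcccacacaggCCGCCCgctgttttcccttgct

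Windows were found for 7 of the 10 genes, Fas, Fadd, Cflar, Casp8, Tnfrsf23, Tnfrsf1a and Tnfrsf1b. Motifs were searched on both strands, so that a match on the other strand reads as its reverse complement. The p53 half-site had no match in the 7 windows, and 8.36% of 32851 promoter windows of this length hold it. The NF-kB motif (4.51%) and TGACGTCA (1.79%) had none either. Absence says only that these letters are not in the windows. GGGCGG, the GC box, was found in Tnfrsf23, Fas, Fadd and Tnfrsf1b and in 35.7% of all windows. In Tnfrsf23 it began at base -92 from the start site and in Fas at bases -47 and 29. TATAAA, found in 13.6% of windows, was in Tnfrsf23 at base -158 and also in Cflar. The STAT-type motif TTCNNNGAA (8.3%) was in Fas at base -93 and also in Tnfrsf1a and Tnfrsf1b. The interferon-type motif GAAANNGAA (8.56%) was in Cflar and Tnfrsf1b. The windows of Tnfrsf23 and Fas thus shared GGGCGG alone of the 7 motifs searched, and their GC content was 46.3% and 59%.

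Tnfrsf10b is the mouse death receptor for TRAIL. It read 3.75 and 3.94 in control cells and 3.88 and 3.93 in NC06 cells. The groups overlapped, and all 4 values were below the medians of the arrays and slightly above their lower quartiles. It differed by 0.0612 (SE 0.0979, 95% interval from -0.20 to 0.32, adjusted p 0.806 in limma), and it was -0.0301 without control replicate 1. A signal this dim limits what could be detected, so a change in Tnfrsf10b at low level cannot be told from none.

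Tnfrsf1a encodes TNF receptor 1, which has a death domain and signals both NF-kB activation and death. It read 9.80 and 9.93 in control cells and 9.99 and 10.04 in NC06 cells. The NC06 values were both higher, but by little more than the gap between the control arrays, at 0.15 (SE 0.088, 95% interval from -0.09 to 0.39, adjusted p 0.482). Tnfrsf1b encodes TNF receptor 2, which lacks a death domain. It read 8.68 and 8.76 in control and 8.72 and 8.97 in NC06 cells, where NC06 replicate 2 was the high value and the groups overlapped. It differed by 0.13 (SE 0.115, 95% interval from -0.18 to 0.44, adjusted p 0.645 in limma), and it was between 0.00102 and 0.25 with any array left out. The change of Tnfrsf1b minus Tnfrsf1a was -0.0233, with a p of 1 in the exact two-sided permutation test and a smallest possible p of 0.333.

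Fadd, the adaptor that joins Fas and the TRAIL receptor to caspase-8, was the gene of the 10 with a negative difference. It read 7.91 and 8.12 in control cells and 7.64 and 7.60 in NC06 cells. The groups did not overlap, with the control arrays 0.20 apart and the NC06 arrays 0.04 apart. The difference was -0.40 (SE 0.103, 95% interval from -0.67 to -0.12), or 0.76-fold, with a p of 0.0154 and an adjusted p of 0.247 in limma. A p as small or smaller was common, since 6.23% of all genes had a smaller one. The adjusted p was 0.0679 without the genes below the median signal, where 3.06% of genes were called lower, and 0.0408 with the trend and robust prior, where 3.12% of genes were called lower. Leaving out control replicate 2 gave a difference of -0.29, and the range over the arrays left out was from -0.50 to -0.29, with unadjusted p from 0.0149 to 0.0744. Fadd also lies on chromosome 7, with 10 tested genes between it and the cluster.

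Casp8 encodes caspase-8. Its probe set was bright, at 11.59 and 11.63 in control cells and 11.72 and 11.66 in NC06 cells. The groups were separated by less than the NC06 arrays differed from each other. It differed by 0.0761 (SE 0.0782, 95% interval from -0.13 to 0.29, adjusted p 0.685 in limma). Cflar, which encodes FLIP, read 7.22 and 7.14 in control and 7.19 and 7.41 in NC06 cells, with overlapping groups. It differed by 0.12 (SE 0.109, 95% interval from -0.17 to 0.41, adjusted p 0.644). Cflar minus Casp8 changed by 0.0439 between the groups, less than the 0.121 and 0.283 by which the arrays of each group differed in it, with a p of 1 in the exact two-sided permutation test. The Cflar probe set was not resolved into the long and short forms of FLIP.

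**Figure D3:**
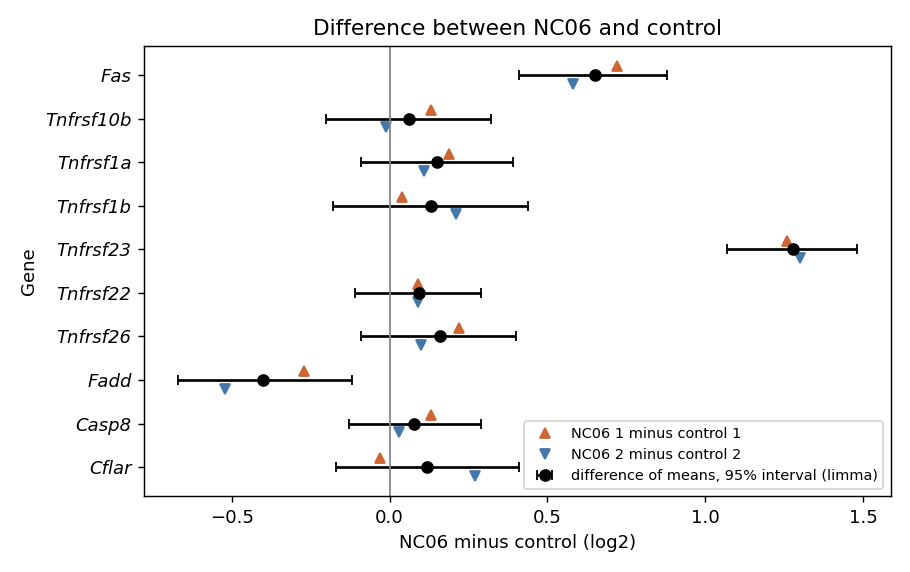
Difference between NC06 and control (log2, horizontal axis) for each gene, as the difference of group means with its 95% interval in limma (black) and for each same-numbered pair of arrays (triangles). The intervals of Tnfrsf23, Fas and Fadd exclude 0, and those of the other 7 genes include it.

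The ligands of the superfamily were mostly dim. Of 18 listed, 16 were tested, 7 of them above the median signal, and their median difference was 0.0115. In limma 0 had an adjusted p under 0.05, and at an unadjusted p under 0.05 there were 0 higher and 2 lower. The shares of all genes, for this list and those below, were 0% at the adjusted threshold. At the unadjusted threshold they were 7.79% higher and 7.52% lower. Tnfsf10, which encodes TRAIL, read 6.60 and 6.88 in control and 6.41 and 6.05 in NC06 cells. Its groups did not overlap, and the difference was -0.51 (SE 0.172, adjusted p 0.305 in limma). That adjusted p was 0.117 without the genes below the median signal and 0.102 with the trend and robust prior. Ltb, which encodes lymphotoxin beta, read 8.97 and 8.94 in control and 8.55 and 8.70 in NC06 cells. Its difference was -0.33 (SE 0.0911, adjusted p 0.258 in limma). For Ltb it was 0.0707 without the genes below the median signal and 0.0355 with the trend and robust prior. Tnf differed by -0.20 and Tnfsf18, the ligand of GITR, by -0.22, neither with an unadjusted p under 0.05. Fasl, the ligand of Fas, read 3.62, 3.44, 3.61 and 3.55 on the 4 arrays, close to their lower quartiles. The signal for TRAIL was lower and that for its decoy Tnfrsf23 higher on the same NC06 arrays, each without passing the adjusted threshold. Without the genes below the median signal and with the trend and robust prior, Tnfrsf23 passed it and Tnfsf10 did not. Whether these differences are related was not tested.

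Other receptors of the superfamily had a median difference of 0.138 over 21 genes, with 1 higher and 0 lower at an unadjusted p under 0.05 and 0 at an adjusted p under 0.05 in limma. The gene with the smallest p was Tnfrsf9, which encodes the costimulatory receptor 4-1BB. It read 7.08 and 6.88 in control and 7.71 and 7.76 in NC06 cells, with no overlap, a difference of 0.75 (SE 0.102, adjusted p 0.148, or 0.023 when the genes below the median signal are removed). Eda2r, a receptor of ectodysplasin A2 that p53 is known to induce, was dim and differed by 0.29 (SE 0.114, adjusted p 0.342). The ectodysplasin receptor gene Edar differed by 0.22 and Tnfrsf13c, the BAFF receptor gene, by 0.28, and neither reached an unadjusted p of 0.05.

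Adaptors and enzymes of the receptor complexes had a median difference of -0.0446 over 29 tested genes of 30 listed. At an unadjusted p under 0.05 there were 2 higher and 3 lower, and 0 passed the adjusted threshold in limma. Ikbkg encodes NEMO, the regulatory subunit of the IkB kinase. It read 7.40 and 7.49 in control and 7.97 and 7.93 in NC06 cells, a difference of 0.51 (SE 0.0804, adjusted p 0.17, or 0.0266 when the genes below the median signal are removed). Traf1, a receptor-associated adaptor, differed by 0.43 (SE 0.113, adjusted p 0.247 in limma). Without the genes below the median signal that p was 0.0693, and with the trend and robust prior 0.0927. Rnf31, which encodes the catalytic subunit HOIP of the linear ubiquitin ligase, read 6.99 and 7.30 in control and 6.55 and 6.68 in NC06 cells. The difference was -0.53 (SE 0.136, adjusted p 0.245 in limma). For Rnf31 the adjusted p was 0.0709 without the genes below the median signal and 0.0463 with the trend and robust prior. The control arrays were themselves 0.31 apart. Tab1, a partner of the kinase TAK1, differed by -0.32 (SE 0.0915, adjusted p 0.264 in limma). For Tab1 the adjusted p was 0.0734 without the genes below the median signal and 0.0326 with the trend and robust prior. The genes of the necroptosis kinases and their effector stood near 0, with -0.0181 for Ripk1, 0.0696 for Ripk3 and -0.00561 for Mlkl, named here after their values were seen.

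Downstream of caspase-8, the 7 executioner genes had a median difference of -0.072, with 0 higher and 2 lower at an unadjusted p under 0.05 and 0 at an adjusted p under 0.05. Parp1, the DNA damage sensor that caspases cleave, read 10.98 on both control arrays and 10.67 on both NC06 arrays. Its difference was -0.31 (SE 0.0743, adjusted p 0.241, or 0.0492 when the genes below the median signal are removed). Dffb, which encodes the caspase-activated DNase, differed by -0.30 (SE 0.101, adjusted p 0.305 in limma). For Dffb it was 0.103 without the genes below the median signal and 0.219 with the trend and robust prior. The caspase gene Casp6 differed by 0.22, with an interval that includes 0.

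**Figure D4:**
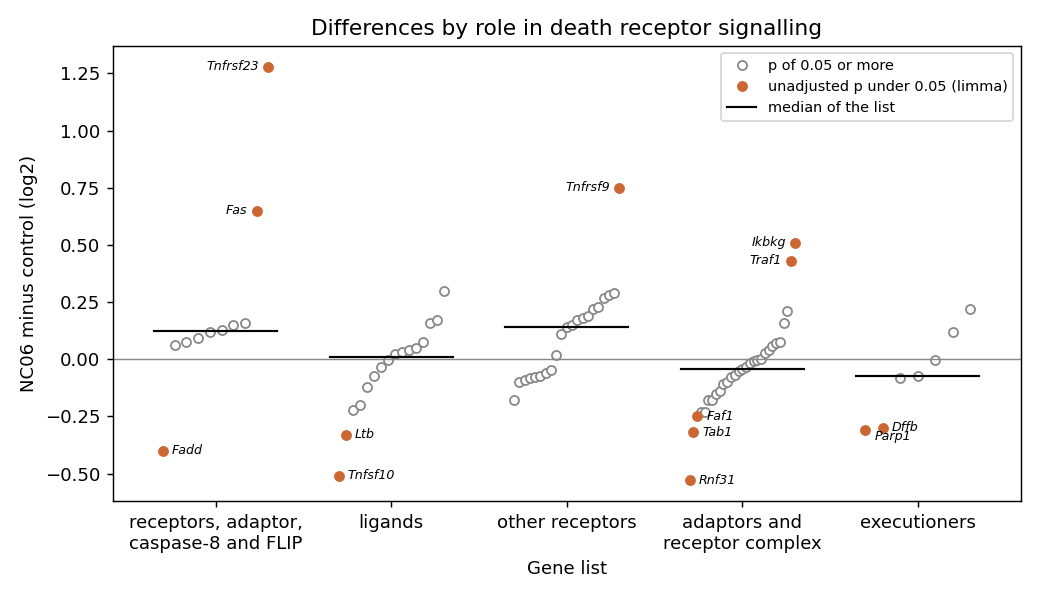
Difference between NC06 and control (log2, vertical axis) for each gene of 5 lists, with filled points at an unadjusted p under 0.05 in limma and a line at the median of each list. The 10 genes of the first list have a median of 0.123, the ligands 0.0115 and the executioners -0.072.

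For the pair of members with the largest differences, the genes with the most similar profiles were taken by the Euclidean distance between log2 values centred on each gene's mean over the 4 arrays. For Tnfrsf23 these were Pilrb1, a paired immunoglobulin-like receptor gene, at a distance of 0.0438, the early response gene Ier3 at 0.105, Gsdme, which encodes gasdermin E, at 0.111, and the protease inhibitor gene Slpi at 0.135. Pilrb1 read 5.89 and 5.84 in control and 7.15 and 7.14 in NC06 cells, and its difference of 1.28 rounds to the same value as that of Tnfrsf23. For Fas they were the myelin protein gene Pmp22 at 0.0296, Olfm1 at 0.035, Ctxn1 at 0.0413 and the pseudokinase gene Trib1 at 0.0496, with differences from 0.61 to 0.68. With 4 arrays in 2 groups, such likeness reflects mainly a similar difference between the groups.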

How the data were processed

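RNA of 2 control and 2 NC06 samples was measured on whole-transcript arrays, and groups and replicate numbers came from the sample titles. The log2 values per probe set were used as the authors deposited them, who used Partek according to the submitters' processing notes (the sources used here do not state the version, background correction and normalization). The authors' deposited table also gives a ratio and a p-value of NC06 against control, printed here only where that table is named. Its pairwise ratios matched the value table to 2.6e-15 log2, which settles the scale and direction.

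Of 41345 probe sets, 27832 were named through the platform annotation or, where it did not list them, the deposited symbol, giving 26246 genes, with the brightest probe set taken for each. Differences were fitted with limma 3.58.1 in R 4.3.3 (lmFit and eBayes, two-sided, Benjamini-Hochberg over all genes, threshold 0.05), with 2 residual and 2.36 prior degrees of freedom, and intervals are 95% intervals. The fit was tested on simulated data. Exact permutation tests used scipy 1.17.1. The number of arrays limits the precision.

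The members and lists were chosen with earlier results of these data known. Named genes are the 10 members, the 4 genes of each other list with the smallest p, the 4 tested neighbours on each side of the cluster and the 4 most similar profiles for each of 2 members, leaving out predicted models and small RNAs there. Some list members are not reported here by name. Alternatives were quantile normalization, median centring, filters on dim genes, a trend and robust prior, other rules for several probe sets, a replicate block, fits with 1 array removed, the values of the deposited ratio table, and other thresholds. No genome build was named, so coordinates are given only for RefSeq promoters.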

Additional observations from a re-analysis of the deposited data

How the results depend on the processing

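Over 13 alternatives, the 10 genes gave 129 values of single genes, of which 121 kept their direction and side of the threshold, 7 came to pass it and 1 reversed, Tnfrsf10b at -0.0301 without control replicate 1, whose range over the arrays left out reached 0.15. The causes of the changes in the calls below were not tested. Members past the threshold in limma numbered 0 of 10, 1 with median centring, 1 without the genes of lowest mean signal (a quartile), 2 without the genes below the median signal and 3 with the trend and robust prior. They numbered 1 at an adjusted p under 0.10 and 3 at an unadjusted p under 0.05. Genes called over the whole table numbered 0 with the values as deposited, 13 after quantile normalization, 26 after median centring, 133 without that quartile, 871 without the genes below the median, 1459 with the trend and robust prior and 2 with the mean or the dimmest probe set. They numbered 117 at an adjusted p under 0.10 and 4018 at an unadjusted p under 0.05. Of the 16 ligands, 21 other receptors, 29 adaptors and 7 executioners, 0 passed. Without the genes below the median, 3 passed of the 7, 14, 28 and 7 left, beside 871 of all 13123 genes. With the trend and robust prior 7 passed, beside 1459 of all 26246 genes. The median difference of the members was 0.123, 0.0671 after median centring, which moved the median of all genes to -0.0538, and between 0.0861 and 0.175 with any array left out. With any array left out, 0 genes passed the adjusted threshold, and 2506 to 2980 had an unadjusted p under 0.05. With the replicate number as a block, 0 members and 0 genes passed, with 3 members and 3492 genes at an unadjusted p under 0.05. Same-numbered arrays deviated together with a correlation of 0.0325 over all genes and 0.152 over the 13123 brighter genes. The labels give no shared source for a number, and with 2 pairs the numbers were not taken to pair the arrays. All 10 members had 1 probe set each, so other rules for several probe sets left their differences as they were. The dim signal of Tnfrsf10b limits its value, as does the number of arrays.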
